A study of Homo sapiens with 6 samples.

Results

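H1299, an established line from human lung cancer, was infected with lentivirus carrying 1 of 2 short hairpin RNAs (shRNAs) against RBP2, and the transcripts under each hairpin were compared. The hairpins are labelled RBP2 KD1 and RBP2 KD2 and are called shRNA 1 and shRNA 2 here. A scramble shRNA served as the control, all cells grew in RPMI medium with 10% fetal calf serum, and RNA was taken 72 hours after infection. Each group had 2 arrays, so 4 of the 6 arrays carry the comparison of the hairpins. The 2 scramble arrays enter the limit on level, the choice of a gene's brightest probe set, the estimate of the spread and the position of each difference. A mean log2 value of 4 or more over the 6 arrays was required, and 22330 of 54613 probe sets met it. The members nearest to that limit had a mean of 4.0001, and the nearest probe set left out had 3.9993. Taking the brightest probe set of each gene gave 10526 of 19775 genes. Nothing in the labels says that the arrays of a group came from separate cultures, that infected cells were selected or that a clone was used, so the p-values rest on how far these arrays differ within a group, and that spread may be technical.

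RBP2, now named KDM5A, is a histone demethylase that removes methyl groups from lysine 4 of histone H3 and binds the retinoblastoma protein. An shRNA is cut inside the cell into a short guide strand that leads the silencing machinery to matching transcripts. Each hairpin has its own guide sequence, so a gene that differs between 2 hairpins to the same target differs with the hairpin used. The hairpin sequences are not used here.

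The arrays were alike in overall level, with a median over tested probe sets between 7.65 and 7.73. Across tested probe sets the arrays of a group correlated at 0.984 with shRNA 1, 0.991 with shRNA 2 and 0.987 in scramble cells. Arrays of shRNA 1 and shRNA 2 correlated at 0.910 to 0.931, below those of shRNA 1 and scramble at 0.960 to 0.972 and those of shRNA 2 and scramble at 0.933 to 0.949. VIM, KRT8 and KRT18, which mark the line, were present in every array, with means over the arrays of 14.96, 10.21 and 12.96. Of 22 markers of other cell types on the array, 1 reached the mean of 4: SFTPB, which read 4.96 in all arrays but one, where it read 5.17. The summed log2 level of those markers lay between 53.8 and 54.1 over the arrays. PTPRC of blood cells, CDH5 of endothelium and SFTPC of lung epithelium stood at or near the lowest value in every array. The values come from whole cultures, so fewer cells of a type and less RNA per cell cannot be told apart.

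Transcript levels separated the hairpins widely. With limma on all 6 arrays and a Benjamini-Hochberg adjusted p under 0.05, called in what follows, 8146 of 22330 probe sets differed (36.5%). Of these, 3731 were higher with shRNA 1 (16.7% of those tested) and 4415 were lower (19.8%). The difference was at least 2-fold in 4382 of them and at least 4-fold in 602 higher and 508 lower. Counted once per gene, 1761 of 10526 genes were higher with shRNA 1 (16.7%) and 2338 were lower (22.2%). Blocking on the replicate number gave 2497 higher genes (23.7%) and 3280 lower (31.2%), and all 4099 genes called without the block were among them with the same sign.

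Same-numbered arrays were also compared one pair at a time. The replicate 1 difference and the replicate 2 difference had the same sign for 83.6% of all tested probe sets, and both arrays of one hairpin stood beyond both arrays of the other for 70.4%. All 8146 called probe sets met both conditions, which is no separate support because the calls came from the same arrays. The median absolute difference was 0.49 in the first pair and 0.44 in the second, with a median standard error of the group difference of 0.17. Across the tested genes the pair differences correlated at 0.94, a description over genes that share 4 arrays and are not independent. The number of calls depended on single arrays. With 1 array left out its group has a single array, taken to vary like the other groups. The count was then 4601 without replicate 1 of shRNA 1, 2988 without replicate 1 of shRNA 2 and 4147 without replicate 2 of shRNA 2. It was 5664 without replicate 2 of shRNA 1 and 6643 without either scramble array.

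**Figure D1:**
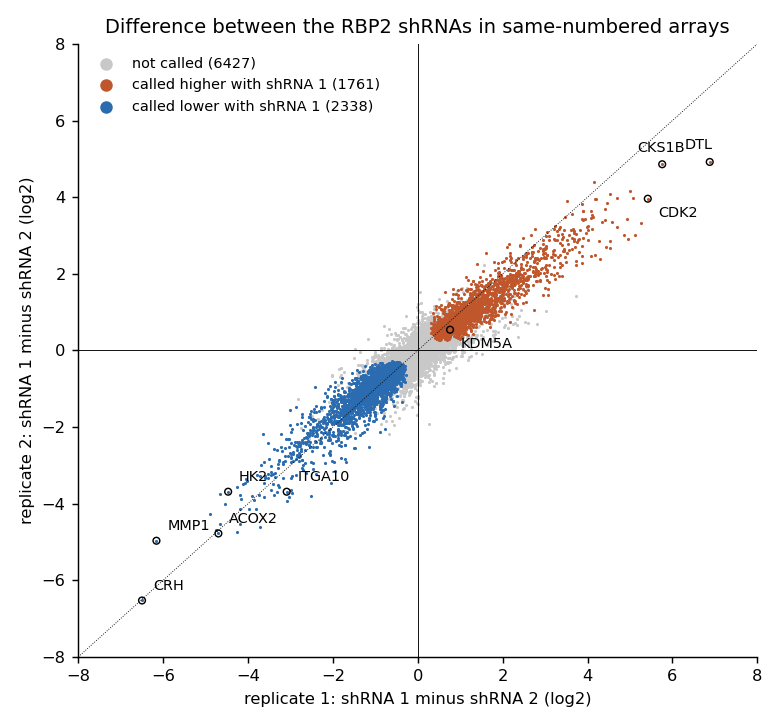
Difference between the hairpins (shRNA 1 minus shRNA 2, log2) in replicate 1 on the x axis and replicate 2 on the y axis, 1 point per gene, coloured by its call, with the dotted line at equal values. The 1761 called higher and 2338 called lower genes fall in the quadrants of equal sign, CRH and DTL farthest out.

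KDM5A, the target of both hairpins, kept a higher level with shRNA 1 than with shRNA 2. Its brightest probe set read 7.42 and 7.27 with shRNA 1, 6.66 and 6.72 with shRNA 2, and 9.35 and 9.42 in scramble cells. Both hairpins lay below scramble and the groups did not overlap. The difference between the hairpins was 0.65 ± 0.11 (SE, n = 2 arrays a group), 1.57-fold, with a limma adjusted p of 0.012. Against scramble, shRNA 1 was lower by 2.04 on the log2 scale (limma adjusted p = 0.0065) and shRNA 2 by 2.69 (adjusted p = 0.0036). The other 3 tested KDM5A probe sets were also higher with shRNA 1, by 0.30, 0.38 and 0.40, and did not pass the test, with adjusted p of 0.17, 0.23 and 0.10. The call of the brightest probe set was lost without replicate 1 of shRNA 1 (0.58, adjusted p = 0.052), replicate 1 of shRNA 2 (0.62, adjusted p = 0.072) or replicate 2 of shRNA 2 (0.68, adjusted p = 0.055).

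The 12 largest differences higher with shRNA 1 are given first. Differences in what follows are shRNA 1 minus shRNA 2 on the log2 scale, with their standard error. DTL, which leads the CUL4 ubiquitin ligase to the licensing factor CDT1, read 10.44 and 8.89 with shRNA 1, 3.55 and 3.97 with shRNA 2 and 10.50 and 9.5 in scramble cells. The shRNA 2 arrays thus stood apart from the other four, and the difference was 5.90 ± 0.61 (limma adjusted p = 0.0035). CKS1B, a small subunit of cyclin-dependent kinases, read 12.63 and 11.56 against 6.86 and 6.70, with 12.72 and 11.87 in scramble. CDK2, the kinase of S phase entry, read 10.56 and 9.77 against 5.14 and 5.81, with 10.37 and 9.70 in scramble. Their differences were 5.31 ± 0.44 and 4.69 ± 0.40, and in both genes shRNA 1 overlapped scramble while shRNA 2 did not. CENPQ of the kinetochore differed by 4.57, DEPDC1B by 4.51, the CDK1-activating phosphatase CDC25C by 4.35 and the passenger protein CDCA8 by 4.30. The helicase BLM followed at 4.29, the kinesin KIF20A at 4.27, thymidine kinase TK1 at 4.19, the NDC80 complex subunit NUF2 at 4.16 and survivin, BIRC5, at 4.07. These 9 passed with adjusted p of 0.0024 to 0.018. BLM read 2.27 and 2.45 with shRNA 2, close to the lowest value on the arrays, 2.24, which bounds the size of its difference. A second probe set was tested for DTL, CDK2, CDC25C and TK1 and was called the same way, as were all 4 of BIRC5. CDCA8, TK1 and BIRC5 lost the call without replicate 1 of shRNA 1 or either shRNA 2 array, BLM without either shRNA 2 array and NUF2 without replicate 2 of shRNA 2.

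The largest differences in the other direction came from genes of varied roles. CRH, corticotropin-releasing hormone, read 3.20 and 3.80 with shRNA 1, 9.70 and 10.33 with shRNA 2 and 6.59 and 7.40 in scramble cells. The scramble arrays lay between the hairpins, and the difference of -6.51 ± 0.39 was the largest of all genes (91.4-fold, limma adjusted p = 0.0016). MMP1, the interstitial collagenase, read 2.84 and 2.84 against 9.0 and 7.80, with 5.39 and 6.64 in scramble (-5.56 ± 0.56, adjusted p = 0.0033). Both MMP1 readings with shRNA 1 lay close to the lowest value on the arrays, 2.24, which bounds the size of this difference. ACOX2, a peroxisomal oxidase of branched acyl chains, read 3.43 and 3.44 against 8.13 and 8.22, with 4.87 and 5.18 in scramble (-4.74 ± 0.14, adjusted p = 0.0014). In both genes the 3 groups were separate, with scramble in the middle. Lower with shRNA 1 as well were MGLL, which cleaves monoacylglycerols, by -4.73, the small GTPase RAB39B by -4.60, the myosin MYH15 by -4.58, TMEM158 by -4.50 and ARL14 by -4.36. The secreted phosphoprotein SPP1 differed by -4.27, the granule protein CHGB by -4.20, the membrane adaptor PAG1 by -4.17 and the nuclear receptor NR4A2 by -4.16. Adjusted p for these 9 lay between 0.0014 and 0.015. A second probe set of CRH (-3.61), MGLL, RAB39B and PAG1, and 2 more of NR4A2, were called the same way. Those of CRH and PAG1, with means of 5.02 and 4.03, met the limit on level only through the shRNA 2 arrays. Their calls are therefore not separate from that limit. ARL14 lost the call without replicate 2 of shRNA 1 or replicate 1 of shRNA 2, MGLL without replicate 1 of shRNA 2 and CHGB without either shRNA 2 array.

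**Figure D2:**
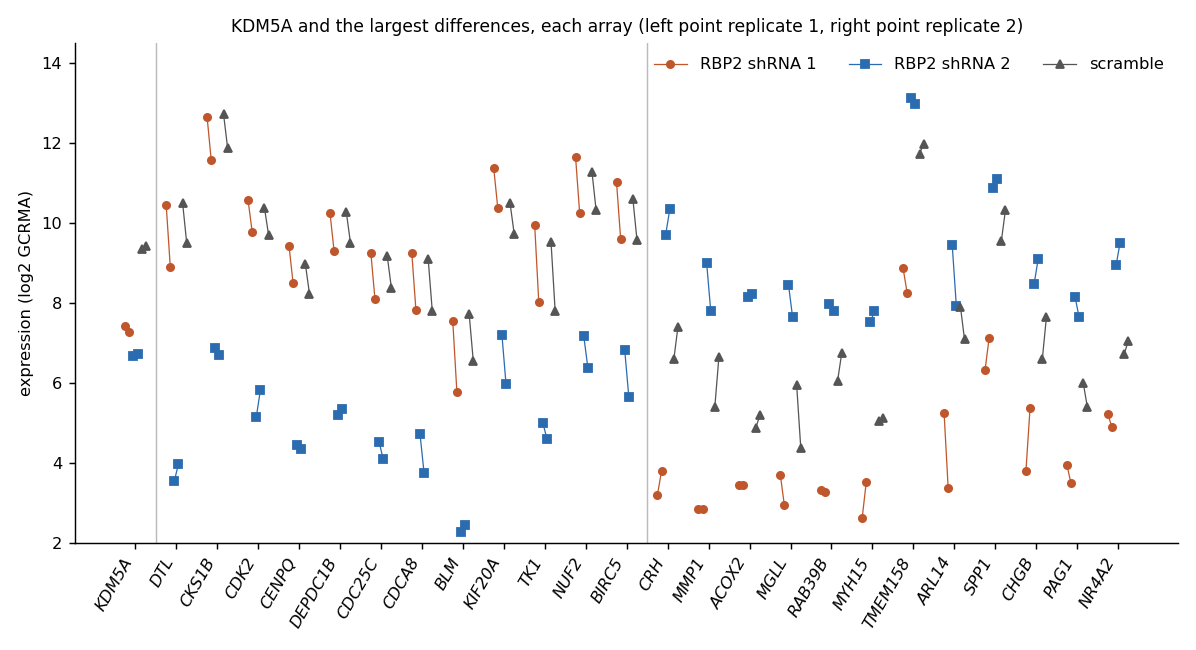
Expression (log2 GCRMA, y axis) of KDM5A, the 12 largest differences higher with shRNA 1 and the 12 largest lower with shRNA 1, with both arrays of each group joined by a line. In the middle block shRNA 2 lies below the other groups, while in the right block shRNA 1 is lowest and scramble mostly lies between the hairpins.

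Promoters of a few called mitotic and replication genes are shown because members of these lists moved together. Genes of mitosis are known to be read late in the cell cycle through a CHR element, with the letters TTTGAA, close to the start and CCAAT boxes before it, while genes of DNA replication often carry E2F sites. The 250 bases before the RefSeq start (GRCh38.p14) were searched on both strands for the CCAAT box, for the CHR letters TTTGAA and for the E2F letters TTTNNCGC, which can overlap each other. Printed here are the 150 bases before the start of 3 called mitotic genes picked for holding both CCAAT and TTTGAA, in the order of their difference, and of 2 replication genes with TTTNNCGC. All are printed 5′ to 3′ on the gene's strand, with matches on either strand in capitals. CDCA8 lies at chr1:37692366-37692515 on the plus strand, ESPL1 at chr12:53268149-53268298 (plus), KIF11 at chr10:92592980-92593129 (plus), GINS2 at chr16:85688955-85689104 (minus) and CDT1 at chr16:88803639-88803788 (plus).
CDCA8: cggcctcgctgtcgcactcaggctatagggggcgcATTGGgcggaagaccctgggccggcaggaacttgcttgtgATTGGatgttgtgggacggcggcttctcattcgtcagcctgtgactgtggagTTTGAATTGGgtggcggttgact
ESPL1: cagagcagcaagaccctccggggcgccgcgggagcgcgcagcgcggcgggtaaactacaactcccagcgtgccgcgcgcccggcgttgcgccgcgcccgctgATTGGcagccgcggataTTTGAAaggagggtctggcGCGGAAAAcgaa
KIF11: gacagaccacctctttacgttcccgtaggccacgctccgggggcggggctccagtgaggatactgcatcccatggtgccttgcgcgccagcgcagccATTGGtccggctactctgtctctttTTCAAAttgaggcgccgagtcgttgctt
GINS2: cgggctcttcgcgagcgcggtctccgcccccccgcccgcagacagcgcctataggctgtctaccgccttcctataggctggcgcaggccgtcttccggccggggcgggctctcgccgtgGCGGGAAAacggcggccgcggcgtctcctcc
CDT1: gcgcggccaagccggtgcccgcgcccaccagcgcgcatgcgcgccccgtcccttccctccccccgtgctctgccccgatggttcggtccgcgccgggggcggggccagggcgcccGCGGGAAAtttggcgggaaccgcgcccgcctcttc

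CDCA8 holds 3 CCAAT boxes, all read as ATTGG on the printed strand, the last of which overlaps its TTTGAA. ESPL1, the separase that cuts cohesin, and KIF11, the motor that pushes spindle poles apart, hold 1 of each, and ESPL1 also has an E2F match. ESPL1 was 3.82 ± 0.72 higher with shRNA 1, a call lost without replicate 1 of shRNA 1 or either shRNA 2 array. GINS2 and CDT1 hold 1 E2F match each in the printed stretch. These letters were common: CCAAT was found in 33.0% of all 27305 promoters in the table, TTTGAA in 13.6% and TTTNNCGC in 5.93%. Among 8733 promoters of tested genes the shares were 36.3%, 8.24% and 9.54%. The 3 mitotic lists had a promoter for 66 of 80 tested genes, with CCAAT in 66.7%, TTTGAA in 39.4% and TTTNNCGC in 15.2%. The DNA replication list had one for 46 of 53, with shares of 54.3%, 2.17% and 32.6%. Lists that did not move with the mitotic genes had high shares too. CCAAT was found in 87.5% of 24 endoplasmic reticulum promoters, 78.9% of 19 sterol promoters and 82.4% of 17 histone promoters, and TTTGAA in 29.4% of the histone promoters. A match is a description of these letters and not of a factor's binding.

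Mitotic regulators were higher with shRNA 1 in nearly all tested members. Of 33 tested mitotic kinases, cyclins and passenger genes, 29 were higher with shRNA 1 and 1 was lower, with a median difference of 2.74 against -0.06 over all tested genes. As shares these were 87.9% and 3.03%, against 16.7% and 22.2% of all tested genes. The pair medians were 2.95 and 2.45. BUB1B, a spindle checkpoint kinase, read 11.01 and 10.04 with shRNA 1, 6.99 and 6.79 with shRNA 2 and 10.71 and 10.05 in scramble (3.64 ± 0.39, limma adjusted p = 0.0037). CDC25B, a phosphatase that activates CDK1 cyclin complexes, read 10.87 and 10.88 against 8.36 and 9.04 (2.17 ± 0.24, adjusted p = 0.0039). AURKB, CDK1 and CCNB1, the core of mitotic entry and chromosome attachment, differed by 3.27, 2.80 and 2.78. MAD1L1, a checkpoint protein at the kinetochore, was the exception at -1.43 ± 0.15. PKMYT1, PLK1 and FZR1 did not pass, at 1.25, 1.56 and -0.11, while with the block PKMYT1 and PLK1 passed (adjusted p = 0.0035 and 0.017). AURKB and CCNB1 lost the call without replicate 1 of shRNA 1 or either shRNA 2 array, and CDK1 without replicate 2 of shRNA 2.

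The structures that these regulators act on followed. Among 35 kinetochore and centromere genes, 23 were higher and 0 lower (median 2.06), and among 12 mitotic kinesins 11 were higher and 0 lower (median 3.56). The higher shares were 65.7% and 91.7%, against 16.7% of all tested genes. CENPL, a subunit of the centromere network, read 9.52 and 8.99 with shRNA 1 against 6.24 and 5.87 with shRNA 2 (3.20 ± 0.24, limma adjusted p = 0.0019). KIF11 read 10.50 and 9.86 against 6.53 and 6.79 (3.52 ± 0.29, adjusted p = 0.0022). KIF15, which shares the spindle work of KIF11, differed by 3.96, and KIF18A was the kinesin that did not pass, at 0.09. Of 22 condensin and cohesin genes 12 were higher (54.5%) and 1, STAG1, was lower (4.55%, against 22.2% of all tested genes), with a median of 0.78. The condensin subunits NCAPG and NCAPD2 differed by 3.14 and 2.24, and RAD21, the cleavable ring subunit of cohesin, by 0.80. The condensin subunits lost the call without either shRNA 2 array, RAD21 without replicate 1 of shRNA 2, and STAG1 (-0.39) without any 1 of the 6 arrays.

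The number of calls in the mitotic lists rested on single arrays. In all 3 groups replicate 1 read higher than replicate 2 in the mitotic kinase list, by a median of 1.01 with shRNA 1, 0.46 with shRNA 2 and 0.76 in scramble, and its part in the counts was not tested beyond the block. Blocked on the replicate number, 31 mitotic kinase genes, 31 kinetochore genes, 11 kinesins and 17 condensin and cohesin genes were higher. Left out one at a time, replicate 1 of shRNA 1 left 15, 13, 8 and 4 of these higher calls, replicate 1 of shRNA 2 left 9, 8, 5 and 0, and replicate 2 of shRNA 2 left 6, 6, 4 and 1. With no filter on level, in a fit of all 54613 probe sets, 2 mitotic kinase genes, 4 kinetochore genes and 1 kinesin passed. Both the adjustment and the spread that limma shares across probe sets changed in that fit, and their parts were not tested.

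**Figure D3:**
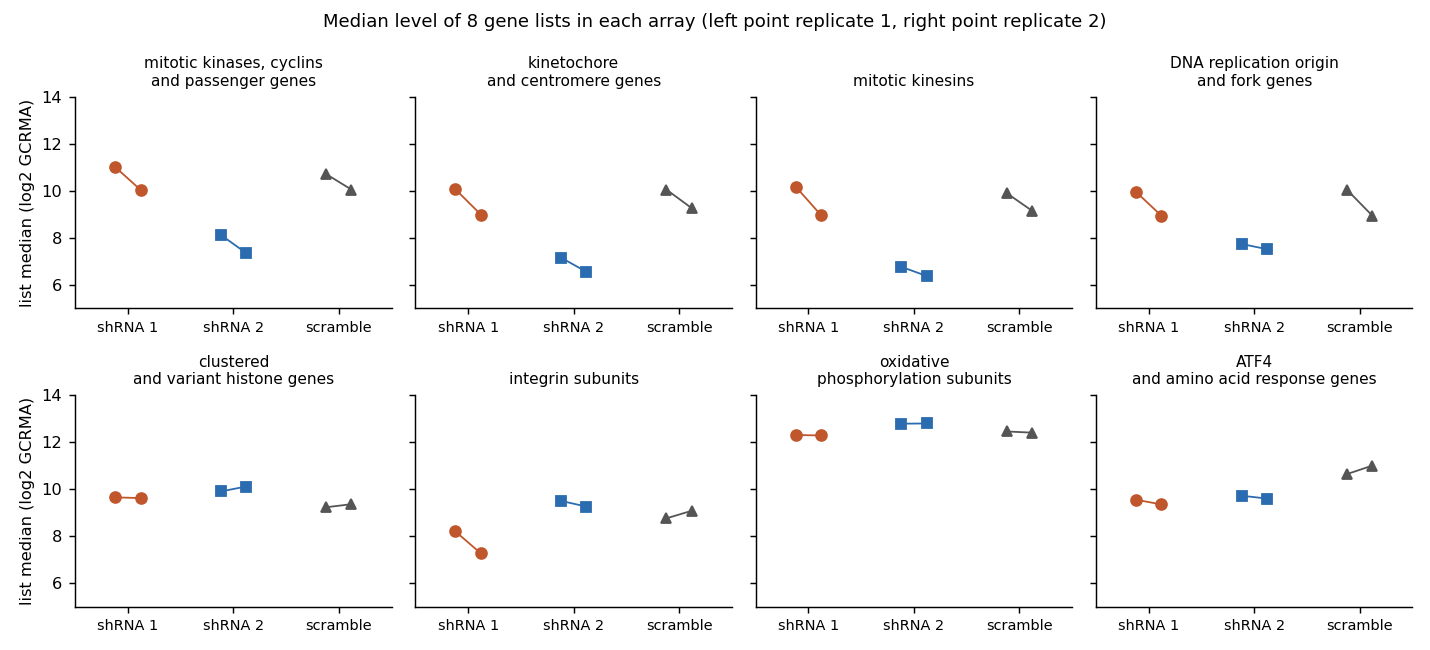
Median log2 level over the tested members of 8 gene lists (y axis) in each of the 6 arrays, with both arrays of a group joined. In the mitotic and replication lists shRNA 2 lies below the other groups and replicate 1 above replicate 2, with medians of the mitotic kinase list of 11.01 and 10.04, 8.13 and 7.36, and 10.71 and 10.05.

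DNA replication genes differed in the same direction. Of 53 tested origin and fork genes 27 were higher with shRNA 1 and 2 were lower, with a median of 1.72 and pair medians of 1.94 and 1.25. As shares these were 50.9% and 3.77%, against 16.7% and 22.2% of all tested genes. RPA1, the large subunit of the protein that coats single-stranded DNA, read 12.43 and 12.27 with shRNA 1, 10.08 and 10.28 with shRNA 2 and 12.01 and 11.75 in scramble (2.17 ± 0.15, limma adjusted p = 0.0018). RFC1 of the clamp loader differed by 1.72 ± 0.13 and TOP2A, the topoisomerase that untangles chromosomes, by 3.77 ± 0.46. CDT1 and GINS2, whose promoters stand above, load and activate the replicative helicase and differed by 3.44 ± 0.45 and 3.57 ± 0.65. The origin factors MCM10 and CDC6 differed by 3.93 and 3.77, while POLD2 of polymerase delta (-1.70) and ORC4 of the origin complex (-0.45) were lower. CDT1 and POLD2 lost the call without replicate 1 of shRNA 2, GINS2 and MCM10 without replicate 1 of shRNA 1 or either shRNA 2 array, ORC4 without any 1 shRNA array, and CDC6 without any array but replicate 2 of shRNA 1. The block gave 40 higher calls and the fit with no filter on level gave 2. Without replicate 1 of shRNA 1 there were 12, without replicate 1 of shRNA 2 there were 3 and without replicate 2 of shRNA 2 there were 6.

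Supply and repair of DNA moved less evenly. Of 24 nucleotide synthesis enzymes 9 were higher and 1 lower (median 0.45), led after TK1 by RRM2, the regulated subunit of ribonucleotide reductase, at 3.39 ± 0.56. The enzyme list thus had 37.5% higher and 4.17% lower, against 16.7% and 22.2% of all tested genes. CMPK1, which phosphorylates pyrimidine nucleotides, read 11.46 and 11.49 against 10.01 and 10.03 (1.46 ± 0.10, limma adjusted p = 0.0018). Its other probe set differed by 0.24 and did not pass (adjusted p = 0.21). PRPS2, which makes the ribose phosphate that nucleotides are built on, was higher at 2.57 ± 0.27 (adjusted p = 0.0037). Purine pathway enzymes were split: GART (1.29 ± 0.18, adjusted p = 0.0069) and GMPS (0.69) were higher, IMPDH1 was lower at -0.60, and PAICS (0.24), PFAS (0.47), ATIC (0.44), ADSL (-0.26), IMPDH2 (0.16) and PPAT (0.58) did not pass. With the block PPAT (adjusted p = 0.017), PFAS (0.042) and ATIC (0.022) passed as well. The block gave 3 lower enzymes. Of 23 homologous recombination and Fanconi genes 10 were higher (43.5%) and 1 lower (4.35%), with a median of 0.95. Among the higher were RAD51AP1 at 4.06, FANCG at 2.5 and BRIP1 at 2.59, and the nuclease subunit MUS81 was lower at -0.70. The dimmer BRIP1 probe set differed by 1.0 and did not pass (limma adjusted p = 0.16), except with the block (adjusted p = 0.048). Without replicate 1 of shRNA 1, replicate 1 of shRNA 2 or replicate 2 of shRNA 2, higher calls numbered 4, 2 and 4 among the enzymes and 5, 1 and 2 among the repair genes. RRM2 lost its call without either shRNA 2 array, GART without replicate 1 of shRNA 2, GMPS without replicate 1 of either hairpin, FANCG and BRIP1 without replicate 1 of shRNA 2, RAD51AP1 without replicate 2 of shRNA 2, MUS81 without any 1 array and IMPDH1 without any 1 shRNA array.

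G1 genes split. Of 15 tested G1 cyclins and kinases 7 were higher with shRNA 1 (46.7%) and 2 were lower (13.3%), against 16.7% and 22.2% of all tested genes. CDK6, a partner of D-type cyclins, read 13.03 and 12.87 with shRNA 1, 10.34 and 10.32 with shRNA 2 and 12.20 and 11.98 in scramble (2.62 ± 0.13, limma adjusted p = 0.0014), and its other 4 probe sets differed by 2.68 to 3.58. CCND1, which encodes cyclin D1, went the other way, with 10.53 and 10.68 against 12.67 and 12.58 (-2.02 ± 0.12, adjusted p = 0.0016). The E-type cyclins parted as well, with CCNE2 at 3.30 and CCNE1 at -2.56. Of 17 RB family, E2F and DREAM genes 8 were higher (47.1%) and 0 lower (median 0.70), including RB1 itself at 1.71 ± 0.21 and the repressors E2F7 and E2F8 at 2.31 and 2.15. Of 6 tested CDK inhibitors CDKN2A and CDKN1B were higher (33.3%), by 0.78 and 0.66, and CDKN1A, CDKN2D and CDKN2B were lower (50%), by -1.37, -1.29 and -1.28. The 8 calls among RB and E2F genes became 3 without replicate 1 of shRNA 1, 2 and 3 without either shRNA 2 array, and 4 without either scramble array. The 7 G1 calls became 4 without either shRNA 2 array. CCNE2 lost its call without replicate 1 of shRNA 1 or either shRNA 2 array, CCNE1 without replicate 1 of shRNA 2, E2F7 without either shRNA 2 array and E2F8 without any array but replicate 2 of shRNA 1. Of the inhibitors, CDKN2D alone kept its call without each of the 6 arrays in turn. CDKN2A lost it without replicate 1 of shRNA 2, CDKN1A without replicate 2 of shRNA 1 or either shRNA 2 array, CDKN1B without either shRNA 1 array or replicate 2 of shRNA 2, and CDKN2B without any 1 shRNA array.

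Histone genes ran against the replication genes. Of 17 tested clustered and variant histone genes 8 were lower with shRNA 1 (47.1%) and 2 were higher (11.8%), with a median of -0.69. Among all tested genes 22.2% were lower and 16.7% higher. H2BC21 read 6.0 and 6.55 with shRNA 1, 8.77 and 9.27 with shRNA 2 and 6.17 and 6.65 in scramble (-2.75 ± 0.30, limma adjusted p = 0.0038). H4C8 read 4.24 and 4.07 against 6.77 and 6.16, with 3.61 and 3.46 in scramble (-2.31 ± 0.23, adjusted p = 0.0032). The H4C8 mean of 4.72 met the limit on level only through the shRNA 2 arrays, so this call is not separate from that limit. In H2BC21 shRNA 1 overlapped scramble, and in H4C8 it lay between scramble and shRNA 2. The variants of H2A.Z parted, with H2AZ2 at -1.40 and H2AZ1 at 0.98, and the linker histone H1-10 was higher at 1.2. Clustered histone genes are near-identical copies, so their probe sets can share signal. Lower calls numbered 3 without replicate 1 of shRNA 1, 2 without either shRNA 2 array and 2 with no filter on level. The higher count was 0 without replicate 1 of shRNA 1 and 1 without any other shRNA array. H2AZ2 lost its call without either shRNA 2 array, and H2AZ1 without those or replicate 1 of shRNA 1.

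Enzymes of histone H3 lysine 4 methylation were called at shares near those of all genes. Of 6 tested demethylases of that residue KDM5A was higher and KDM1B was lower: KDM1B read 6.60 and 7.16 with shRNA 1, 9.05 and 8.69 with shRNA 2 and 8.67 and 8.74 in scramble (-1.99 ± 0.23, limma adjusted p = 0.0046). KDM5B, the closest relative of KDM5A in the list, differed by 0.72 ± 0.26 and did not pass (adjusted p = 0.085), but did with the block (adjusted p = 0.0073). Of 20 methyltransferases and core subunits 3 were higher and 3 lower, 15% each against 16.7% and 22.2% of all genes. SETD7, a lysine methyltransferase, was higher at 1.25 ± 0.11, with SETD1B at 0.99 and RBBP5 at 0.82, and KMT2C was lower at -1.04 ± 0.18, with DPY30 at -0.66 and SMYD2 at -0.46. KMT2A, KMT2B, KMT2D, WDR5 and ASH2L lay between -0.38 and 0.22. Of 23 SIN3 and NuRD genes, whose complexes hold KDM5A and histone deacetylases, 2 were higher and 2 lower (8.7% each), or 7 and 2 with the block. EMSY read 8.72 and 8.65 against 6.62 and 6.89, with 7.58 and 7.49 in scramble, so scramble lay between the hairpins (1.93 ± 0.13, adjusted p = 0.0018). SUDS3 of the SIN3 complex was higher at 0.69, and GATAD2A of NuRD and the deacetylase HDAC1 were lower at -1.37 and -1.02. HDAC1 and KMT2C lost the call without either shRNA 2 array, SETD1B and RBBP5 without those or replicate 2 of shRNA 1, DPY30 without those or replicate 1 of shRNA 1, SMYD2 without any 1 shRNA array, and SUDS3 without replicate 2 of shRNA 1 or replicate 1 of shRNA 2. EMSY, GATAD2A, SETD7 and KDM1B kept it without each of the 6 arrays in turn.

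Integrins, the cell's receptors for the matrix, were the list with the largest share of lower calls. Of 13 tested subunits 9 were lower with shRNA 1 (69.2%) and 1 was higher (7.69%), against 22.2% and 16.7% of all tested genes. The median was -1.09, with pair medians of -1.03 and -1.11. ITGA1, a collagen receptor chain, read 3.61 and 4.08 with shRNA 1, 5.75 and 5.98 with shRNA 2 and 4.33 and 4.33 in scramble (-2.02 ± 0.19, limma adjusted p = 0.0029). ITGB8, a partner of the alpha-v chain, read 3.22 and 3.65 against 5.75 and 5.31, with 3.22, the lowest value of that probe set, in both scramble arrays (-2.10 ± 0.22, adjusted p = 0.0036). Its mean of 4.06 met the limit on level only through the shRNA 2 arrays, so its call is not separate from that limit. With a mean of at least 6 required, 6 subunits were lower and 1 was higher. The fibronectin receptor chain ITGA5 differed by -1.09 and ITGB5 by -0.97. ITGB1, the beta chain shared by most of these receptors, was the subunit that was higher, at 1.47 ± 0.22. It read 12.79 and 13.16 with shRNA 1, 11.32 and 11.69 with shRNA 2 and 14.05 and 14.38 in scramble, so both hairpins lay below scramble. The 9 lower calls became 5 without replicate 1 of shRNA 1, 2 without replicate 1 of shRNA 2 5 without replicate 2 of shRNA 2 and 3 with no filter on level. ITGB1, ITGA5 and ITGB5 lost the call without replicate 1 of shRNA 2.

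Of 31 focal adhesion and actin genes, which connect integrins to the cytoskeleton, 13 were lower (41.9%) and 5 higher (16.1%). Among all tested genes 22.2% were lower and 16.7% higher. TLN1, whose product talin links integrins to actin, read 5.76 and 5.83 against 8.40 and 8.08 in its brightest probe set (-2.44 ± 0.16, limma adjusted p = 0.0017), while its other probe set differed by 0.38 and did not pass. Paxillin, PXN, went the other way at 1.94 ± 0.11, as did calponin CNN3 at 3.07 ± 0.17 and RAC1 at 1.32. Myosin light chain MYL9, tropomyosin TPM4 and zyxin, ZYX, were lower, by -1.66, -2.11 and -1.14. Lower calls numbered 7 without replicate 1 of shRNA 1, 4 without replicate 1 of shRNA 2 and 8 without replicate 2 of shRNA 2, while the higher count stayed at 5 without any 1 array and was 8 with the block. MYL9 lost its call without replicate 1 of shRNA 1 or of shRNA 2, and TPM4 without replicate 2 of shRNA 1 or replicate 1 of shRNA 2.

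Matrix genes and proteases varied by gene. Of 26 collagens, laminins and matrix proteins 6 were lower (23.1%) and 3 higher (11.5%), or 9 and 6 with the block. The shares of all genes were 22.2% and 16.7%. The laminin chains LAMB3 and LAMC1 went opposite ways: LAMB3 read 5.96 and 5.62 against 7.59 and 7.64 (-1.83 ± 0.15), and LAMC1 read 10.33 and 10.65 against 6.43 and 7.0 (3.77 ± 0.24), with limma adjusted p of 0.0023 and 0.0017. A second LAMC1 probe set differed by -0.42 and did not pass (limma adjusted p = 0.058), but did with the block (adjusted p = 0.025). Of 17 proteases and plasminogen genes 6 were lower (35.3%), led by MMP1, and 2 higher (11.8%). The plasminogen activators parted, with urokinase, PLAU, at 1.87 ± 0.18 and the tissue type, PLAT, at -1.87 ± 0.18. The sheddase ADAM9 was the other higher gene (1.65). MMP2, a gelatinase, read 3.66 and 3.79 against 5.33 and 6.06 (-1.96). Lower calls were 3 without replicate 1 of shRNA 2 in the protease list, and 3 without replicate 1 of shRNA 1 and 2 without replicate 1 of shRNA 2 in the matrix list.

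Of 30 glycolysis and hypoxia genes 8 were lower and 1 higher, 26.7% and 3.33% against 22.2% and 16.7% of all genes. HK2, an inducible hexokinase that starts glycolysis, read 6.26 and 6.86 with shRNA 1, 10.73 and 10.55 with shRNA 2 and 9.35 and 9.78 in scramble (-4.08 ± 0.26, limma adjusted p = 0.0017), while its 2 dimmer probe sets differed by -0.70 and -0.27 and did not pass. HK1, the widely expressed form, read 8.0 and 8.16 against 10.79 and 10.85 (-2.74 ± 0.13, adjusted p = 0.0014). Also lower were ENO2 (-1.54), VEGFA (-1.40), the glucose transporter SLC2A1 (-1.14), PFKP (-0.84), TPI1 (-0.74) and LDHA (-0.38), and all 6 of these lost the call without replicate 1 of shRNA 2, and likewise without its replicate 2. GAPDH, PGK1, PGAM1, ALDOA, ENO1 and PKM, further enzymes of glycolysis, lay between -0.18 and 0.08 and did not pass. Of 48 oxidative phosphorylation subunits 12 were lower (25%, near the 22.2% of all genes) and 1 higher (2.08%), with a median of -0.28. Most of these differences were small: COX6A1 of cytochrome oxidase differed by -1.49 ± 0.11 and NDUFB10 of complex I by -0.86 ± 0.13, and the other 10 lay between -0.72 and -0.36. The 1 higher subunit was SDHD of complex II, at 0.89, and it lost its call without either shRNA 2 array. The 12 lower calls became 3 and 5 without replicate 1 or 2 of shRNA 1, 2 and 1 without replicate 1 or 2 of shRNA 2, 6 without either scramble array and 7 with no filter on level, and NDUFB10 lost its call without replicate 2 of shRNA 2. The 8 glycolysis calls became 5 without replicate 1 of shRNA 1 and 2 without either shRNA 2 array. The 1 higher gene, ADM, which encodes adrenomedullin, differed by 1.91 and kept its call only without replicate 2 of shRNA 1, and the block gave 3 higher genes.

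Coenzyme Q is the electron carrier of the inner mitochondrial membrane. COQ2, which joins the ring to the side chain, read 5.43 and 5.09 with shRNA 1, 8.40 and 8.36 with shRNA 2 and 9.16 and 9.11 in scramble (-3.12 ± 0.15, 8.72-fold, limma adjusted p = 0.0014). ADCK2, a related kinase-like gene, read 5.31 and 4.90 against 8.78 and 8.55, with 8.55 and 8.51 in scramble (-3.56 ± 0.18, 11.8-fold, adjusted p = 0.0014). In both genes shRNA 1 was the group far from scramble. Lower calls made up 26.7% of the tested list and higher calls 0%, against 22.2% and 16.7% of all genes. In all, 4 of 15 genes of the list were lower, 9 with the block and 2 without replicate 2 of shRNA 1 or either shRNA 2 array. Of 72 mitochondrial ribosomal proteins 9 were lower and 3 higher, below the background shares, and 21 and 9 with the block. MRPL27 differed by -1.90 ± 0.22 and MRPS6 by 1.25 ± 0.15. Those 9 lower calls became 5 without replicate 2 of shRNA 1 and 4 without either shRNA 2 array. Of 31 cytosolic ribosomal proteins 2 were higher (6.45%) and 1 was lower (3.23%), and their median was 0.04. These were RPL19 (0.62), RPLP2 (0.55) and RPS28 (-0.46). Without replicate 1 of shRNA 1, replicate 2 of shRNA 1 or replicate 1 of shRNA 2 none of the 3 was called, RPS28 was not called without replicate 2 of shRNA 2 either, nor RPL19 without either scramble array. The mean of all RPS28 probe sets was higher with shRNA 1, at 0.34.

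Lysosomal genes gave 8 lower and 4 higher of 33, or 24.2% and 12.1%, near the shares of all genes. LAMP1, a main membrane protein of the lysosome, was an exception in size: it read 12.65 and 12.85 with shRNA 1, 9.02 and 9.28 with shRNA 2 and 12.46 and 12.59 in scramble (3.60 ± 0.15, limma adjusted p = 0.0014). Its other 2 probe sets were called at 3.82 and 2.40. ATP6AP1, an accessory subunit of the proton pump, was lower at -2.05 ± 0.20. The enzymes GLA (1.10), PPT1 (1.06) and GUSB (0.66) were higher. The block gave 12 lower and 7 higher, and lower calls numbered 3, 2 and 3 without replicate 1 of shRNA 1, replicate 1 of shRNA 2 or replicate 2 of shRNA 2. Higher calls numbered 2 without either shRNA 1 array or replicate 1 of shRNA 2.

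ATF4 is the factor that raises amino acid supply genes under stress. Of 39 tested genes of its response 11 were higher with shRNA 1 (28.2%) and 4 lower (10.3%), against 16.7% and 22.2% of all genes. Their median difference was 0.20. The list medians against the shared scramble arrays were -1.01 with shRNA 1 and -1.31 with shRNA 2. ATF5, a related factor, read 8.59 and 8.79 with shRNA 1, 6.16 and 6.06 with shRNA 2 and 7.95 and 7.75 in scramble (2.58 ± 0.14, limma adjusted p = 0.0014). CHAC1, which degrades glutathione, read 5.56 and 5.53 against 4.15 and 4.52, below 7.32 and 7.47 in scramble (1.21 ± 0.16, adjusted p = 0.0061). The lipoprotein receptor VLDLR (-2.46), the transfer RNA synthetases GARS1 (-1.19) and WARS1 (-0.93) and the factor CEBPG (-1.02) were lower, and lower calls were 2 and 1 without replicate 1 or 2 of shRNA 2. The 11 higher calls became 6 without replicate 2 of shRNA 1, 4 without replicate 1 of shRNA 2 and 5 without replicate 2 of shRNA 2. Of 26 endoplasmic reticulum genes 3 were higher and 3 lower, 11.5% each and below the shares of all genes, or 5 and 3 with the block. EDEM1 (-1.45), PDIA6 (-0.87) and DNAJC3 (-0.83) were lower and MANF (0.98), HYOU1 (0.79) and CANX (0.64) higher. ERO1B had the highest difference, 1.34, and did not pass (adjusted p = 0.051) except with the block (adjusted p = 0.021), and the central chaperone HSPA5 differed by -0.48 and did not pass. Without replicate 1 of shRNA 1, replicate 2 of shRNA 1, replicate 1 of shRNA 2 or replicate 2 of shRNA 2 the higher count was 1, 1, 0 and 2, and the lower count 2, 3, 2 and 2.

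Sterol genes split within the pathway. Of 21 tested genes 7 were higher (33.3%) and 5 lower (23.8%), against 16.7% and 22.2% of all genes, and 8 were lower with the block. INSIG1, which holds the sterol sensor SCAP in the endoplasmic reticulum, read 13.60 and 13.51 with shRNA 1, 10.92 and 10.94 with shRNA 2 and 11.85 and 11.40 in scramble (2.63 ± 0.17, limma adjusted p = 0.0017). SCAP itself read 7.12 and 7.15 against 8.53 and 8.74, with 8.13 and 8.19 in scramble (-1.50 ± 0.12, adjusted p = 0.0022). Scramble lay between the hairpins in both genes. Higher calls were 2 without either shRNA 1 array, 1 and 3 without replicate 1 or 2 of shRNA 2, and lower calls were 3 without either shRNA 2 array.

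Genes that respond to foreign RNA, or carry out silencing, showed no common direction. Of 22 interferon response genes 3 were lower (13.6%) and 1 higher (4.55%), or 5 and 4 with the block. The shares of all genes were 22.2% and 16.7%. ISG20, an exonuclease, read 3.46 and 3.86 with shRNA 1, 7.64 and 7.64 with shRNA 2 and 4.94 and 5.09 in scramble (-3.98 ± 0.17, limma adjusted p = 0.0014), and ISG15, a ubiquitin-like modifier, differed by -1.34 ± 0.17. The sensors RIGI and IFIH1 lay at -0.35 and 0.33 and did not pass. HERC5, the one higher gene, and SAMD9 kept their call only without replicate 2 of shRNA 1. Of 16 small RNA pathway genes 5 were lower (31.2%) and 3 higher (18.8%). The RNA editor ADAR differed by -1.43 ± 0.16, AGO4 by -1.15 ± 0.15 and the helicase MOV10 by 2.03 ± 0.30, while AGO2, the slicing Argonaute, and DICER1 did not pass at -0.70 and -0.21. AGO2 passed with the block (adjusted p = 0.0048), and MOV10 lost its call without replicate 1 of shRNA 2, where 1 of the 3 higher calls was left. The 5 lower calls became 2 without replicate 1 of shRNA 1, either shRNA 2 array or either scramble array.

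Signalling and survival genes gave mixed counts. Among all tested genes 22.2% were lower and 16.7% higher, against 14.3% each in the BCL2 family list. In the growth factor list the shares were 18.5% and 3.7%. Of 28 BCL2 family, caspase and death receptor genes 4 were lower and 4 higher, 8 and 5 with the block, and 2 lower without either shRNA 2 array. BAD, a promoter of cell death, read 4.93 and 4.66 with shRNA 1, 7.57 and 7.85 with shRNA 2 and 6.89 and 6.79 in scramble (-2.91 ± 0.16, limma adjusted p = 0.0015). The survival gene BCL2L2 was lower too, at -2.17 ± 0.14, and CASP2 was higher at 2.76 ± 0.28, as were the death receptors TNFRSF10B (1.54) and FAS (1.10) and APAF1 (1.37). Of 27 growth factor receptor and ERK output genes 5 were lower and 1 higher, 8 and 4 with the block. TYRO3 and AXL, receptors of one family, went opposite ways at -1.91 ± 0.11 and 1.26 ± 0.12. The 5 lower calls became 2 without any 1 of the shRNA arrays.

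Against 16.7% higher and 22.2% lower among all genes, the epithelial-mesenchymal list had 20% and 26.7% and the NF-kB list 8.33% each. Of 25 TGF-beta pathway genes 6 were higher (24%) and 4 lower (16%), with SMAD5 at 1.82 ± 0.12 and the latency protein LTBP1 at -2.38 ± 0.21. Lower calls were 2 without replicate 1 of shRNA 1 or either shRNA 2 array. Of 24 genes known as p53 targets, in a line described as p53-null, 5 were higher (20.8%) and 2 lower (8.33%). With the block 6 were higher and 7 lower. TP53I3 differed by -2.56 ± 0.23 and RRM2B by 2.09 ± 0.26. Higher calls were 3 and 2 without replicate 1 of shRNA 1 or of shRNA 2, and the lower count was 4 without replicate 1 of shRNA 1 and 1 without replicate 2 of shRNA 1 or either shRNA 2 array. Of 15 epithelial-mesenchymal genes 4 were lower and 3 higher, with PRRX1 at -1.89 and TJP1 at 1.01, both lost without replicate 1 of shRNA 2. Without replicate 1 or 2 of shRNA 1 the lower count was 2 and 3, without replicate 1 of shRNA 2 both were 0, and without its replicate 2 there were 3 lower and 1 higher. Of 12 NF-kB genes 1 was higher, RELA at 1.49 ± 0.12, and 1 lower, LIF at -1.65 ± 0.31, with 3 higher under the block. LIF lost its call without either shRNA 2 array.

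**Figure D4:**
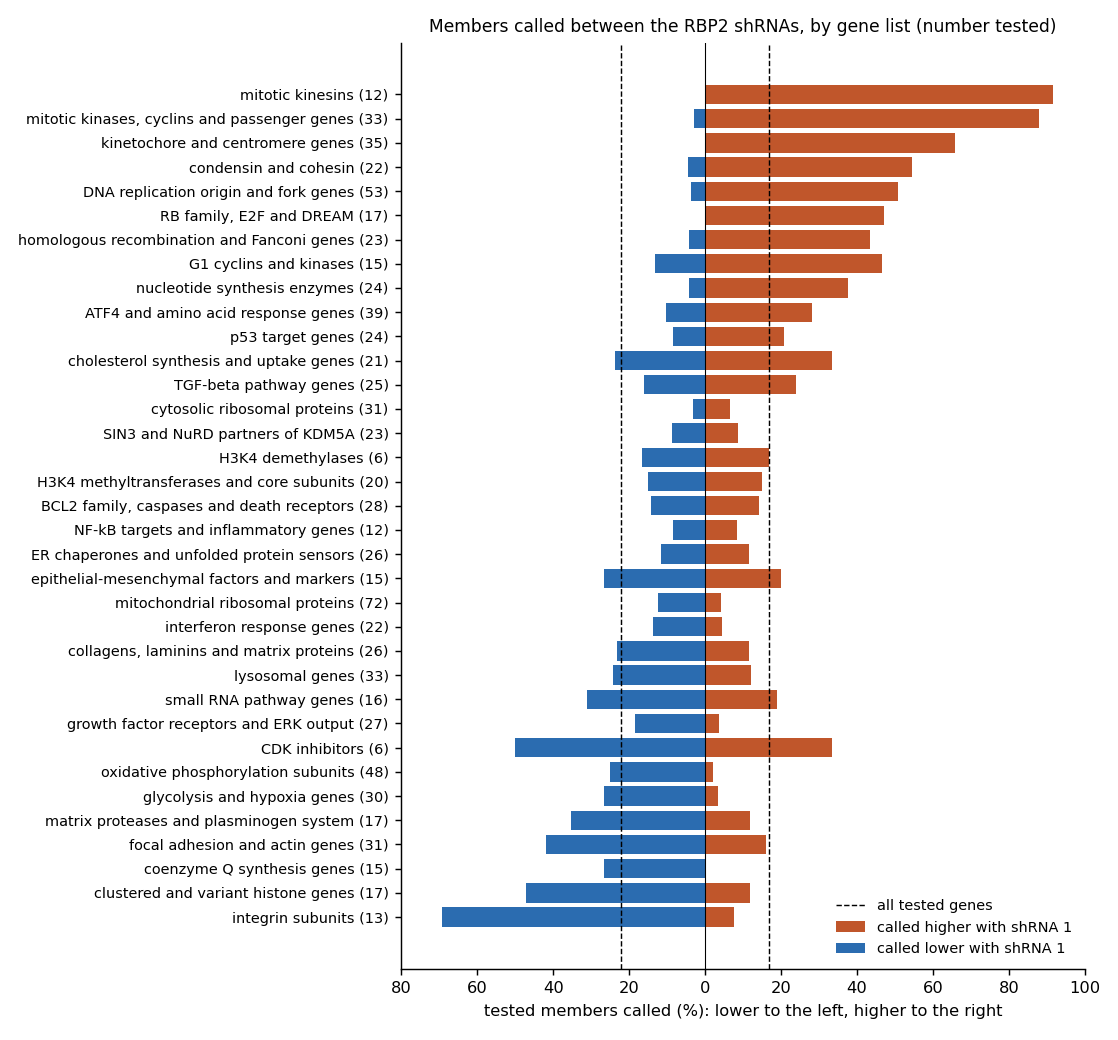
Share of tested members (x axis, %) called higher (right) or lower (left) with shRNA 1 in each gene list with at least 5 tested members, whose number stands in brackets. Dashed lines mark all tested genes at 16.7% higher and 22.2% lower, with the mitotic lists far to the right and the integrins far to the left.

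Scramble cells show on which side each difference lay. Both comparisons use the same scramble arrays, so their values share those arrays' deviations and are set side by side only. At the gene level 297 genes were called higher (2.82%) and 715 lower (6.79%) with shRNA 1 than in scramble, and 1573 higher (14.9%) and 1401 lower (13.3%) with shRNA 2. Of the 1761 genes higher with shRNA 1 than with shRNA 2, the scramble mean was nearer to shRNA 1 for 1336 and nearer to shRNA 2 for 425. Of the 2338 lower ones it was nearer to shRNA 1 for 1348 and to shRNA 2 for 990. The medians against scramble of the mitotic kinase list were -0.03 with shRNA 1 and -2.75 with shRNA 2, those of the kinesins 0.06 and -3.32 and those of the DNA replication list -0.10 and -1.61. For the integrins they were -0.61 and 0.67. Calls against scramble also changed with single arrays. With shRNA 1, 1994 probe sets were called, 5256 with the block, and 0 by limma without any 1 array, where 4478 to 5359 still had an unadjusted p under 0.05. With shRNA 2, 5653 were called, 9627 with the block, 177 and 1572 without replicate 1 or 2 of shRNA 2, and 363 and 1386 without replicate 1 or 2 of scramble.

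**Figure D5:**
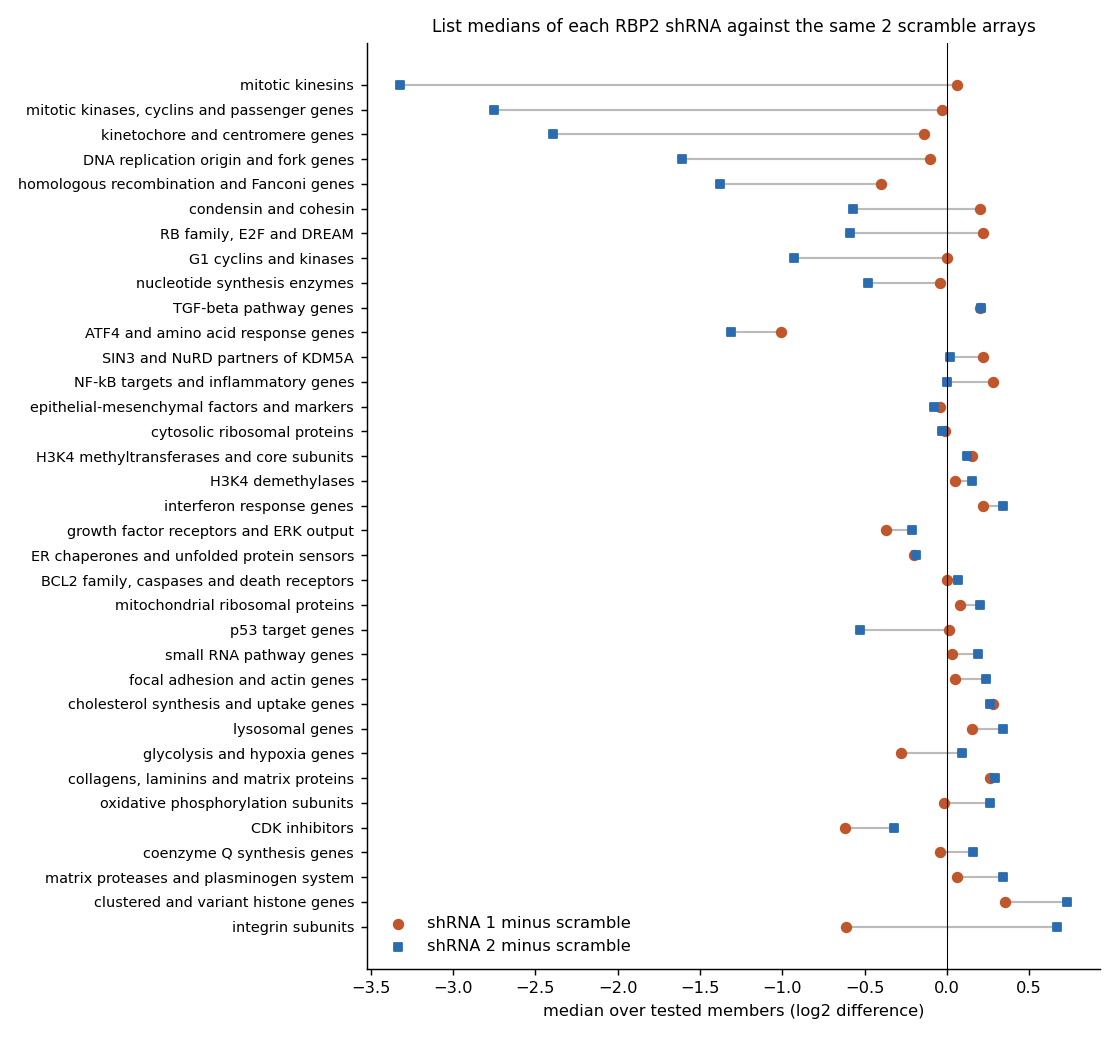
Median over the tested members of each list of shRNA 1 minus scramble (circles) and shRNA 2 minus scramble (squares), on the log2 scale (x axis), ordered by the difference between the hairpins. The squares of the mitotic lists lie far left, to -3.32, beside circles near 0, and the integrins have a circle at -0.61 and a square at 0.67.

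The hairpins moved 206 genes in opposite directions from scramble, 35 up with shRNA 1 and down with shRNA 2 and 171 the other way, each passing the test against scramble with both. Without any 1 of the 6 arrays this count is 0, the genes named here included, since no call of shRNA 1 against scramble was then made. The 5 with the largest difference were all lower with shRNA 1. CRH fell by 3.49 with shRNA 1 and was higher by 3.02 with shRNA 2 (limma adjusted p = 0.016 and 0.0097). The dimmer CRH probe set was higher by 2.78 with shRNA 2 (adjusted p = 0.0046), while its difference of -0.83 with shRNA 1 did not pass (adjusted p = 0.082). MMP1 fell by 3.18 and was higher by 2.39 (adjusted p = 0.037 and 0.037), and ACOX2 fell by 1.59 and was higher by 3.15 (adjusted p = 0.01 and 0.0036). RAB39B fell by 3.11 and was higher by 1.49 (adjusted p = 0.0093 and 0.016), and MYH15 fell by 2.01 and was higher by 2.57 (adjusted p = 0.029 and 0.0085). Further examples among the genes described above were CCND1, HK1, HK2, BAD, SCAP, ISG20, TP53I3, EDEM1, TMEM158, PAG1 and NR4A2. These were lower with shRNA 1 and higher with shRNA 2 than in scramble, while CDK6, EMSY, INSIG1 and ATF5 were the reverse. All rest on the brightest probe set. The 2 dimmer ones of HK2 differed from scramble by -0.89 and -1.67 with shRNA 2 and did not pass. With shRNA 1, a dimmer probe set of CCND1 (-0.64, limma adjusted p = 0.17) and one of NR4A2 (-0.79, adjusted p = 0.097) did not pass against scramble. Some dimmer probe sets of CDK6, EMSY and INSIG1 also failed 1 or both tests against scramble.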

How the data were processed

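Total RNA (250 ng a sample) was labelled and read on 6 expression arrays, 2 a group, with groups taken from the sample labels. The deposited values are log2 intensities. The submitters' processing notes name GCRMA as the method, with neither version nor options. The method sets dim probe sets to a floor (2.24 at the lowest), so differences that reach it are compressed. Of 54675 probe sets 62 controls were left out; 41091 had 1 gene symbol, 1801 several and 11721 none, and 41037 were matched to RefSeq by gene ID. The number of arrays limits the precision.

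From these values the 22330 probe sets with a mean log2 of at least 4 were fitted with limma 3.58.1 (lmFit and eBayes, R 4.3.3) over all 6 arrays without a block, and p-values were Benjamini-Hochberg adjusted over all of them. A gene is its brightest probe set, and folds are powers of the log2 difference. The code was tested on simulated data. The titles number the replicates, and the labels do not say what same-numbered arrays share. Deviations from the group means of same-numbered arrays correlated at 0.51 (shRNA 1 and 2), 0.70 (shRNA 1 and scramble) and 0.48 (shRNA 2 and scramble) over 22330 probe sets. A fit with that number as a block was therefore also made.

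The groups compared, gene lists and rules were chosen with earlier results of these data known. Named genes were KDM5A, the 12 largest called differences in each direction, up to 4 called members of each list with the smallest adjusted p, and 5 genes called in opposite directions against scramble. Other genes are examples picked after their values were seen. Alternatives varied the samples in the fit, the filter, the probe set of a gene, scaling, the prior variance, floor values and cross-hybridising probe sets. Promoters came from RefSeq (GRCh38.p14).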

Additional observations from a re-analysis of the deposited data

How the results depend on the processing

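Each group holds 2 arrays, and signal near the GCRMA floor bounds the folds of dim genes. The 8146 probe sets called between the hairpins (3731 higher and 4415 lower with shRNA 1) became 3348 (1353 and 1995) with no filter on level, 4327 (1872 and 2455) when only the brightest probe set of a gene was fitted, 3807 (1669 and 2138) with the mean of a gene's probe sets and 5190 (2462 and 2728) without _x_at and _s_at probe sets. In that order of settings, the calls against scramble were 314, 1213, 1042 and 1327 with shRNA 1 and 1379, 3264, 2913 and 3597 with shRNA 2. The replicate block gave 11632 calls between the hairpins, and 5256 and 9627 against scramble for shRNA 1 and 2, and it ended none of the 8146 calls. The block also raised list counts for which the report gives no block count. Among them were 11 higher RB and E2F genes, 15 higher repair genes and 11 lower histone genes. Lower calls were 18 among oxidative phosphorylation subunits, 12 among glycolysis genes and 9 among proteases, and the TGF-beta list had 9 higher and 6 lower. With 1 array left out, calls between the hairpins ranged from 2988 to 6643 (1281 to 3017 higher, 1707 to 3626 lower), those of shRNA 1 against scramble were 0 in all 6 fits (limma), with 4478 to 5359 at an unadjusted p under 0.05, and those of shRNA 2 ranged from 177 to 4713. KDM5A ranged from 0.58 to 0.73 and was 0.30 without _x_at and _s_at probe sets, where it was not called. Leaving out 1 array gave 6 to 29 higher mitotic kinase genes, 6 to 24 kinetochore genes, 4 to 11 kinesins and 3 to 28 replication genes, and 2 to 8 lower histone genes, 2 to 7 integrins and 1 to 6 oxidative phosphorylation subunits. With no filter on level these counts were 2, 4, 1, 2, 2, 3 and 7. Without _x_at and _s_at probe sets they were 17 for the mitotic kinase list, 16 for replication and 4 for histones, and with the 4 shRNA arrays alone 6 for oxidative phosphorylation. The adjustment over more probe sets, the spread that limma shares across them, or the smaller number of arrays or probe sets, is part of how these fits were made. The direction turned for SMAD2 with the mean of its probe sets (0.23), for RPS28 with that mean (0.34) and without _x_at and _s_at probe sets (1.06), and SFTPB (0.11 with all arrays) ranged from 0.00 to 0.21 as single arrays were left out; the cause was not tested.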

Other observations

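Genes outside the lists extended both ends. Higher with shRNA 1 were further genes of dividing cells: DDIAS by 4.05, the mitotic kinase PBK by 4.04, FIRRM by 3.93, the spindle pole gene ASPM by 3.85, DLGAP5 by 3.85 and lamin B1, LMNB1, by 3.80. Others have no such known role. TAB2, an adaptor of inflammatory signalling, read 10.46 and 10.53 with shRNA 1, 6.60 and 7.09 with shRNA 2 and 9.54 and 9.84 in scramble cells (3.65, limma adjusted p = 0.0015). PLIN3, a coat protein of lipid droplets, read 11.75 and 11.99 against 7.86 and 8.58, with 11.44 and 11.53 in scramble (3.65, adjusted p = 0.0018). All these genes were picked after their values were seen.

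Probe sets of one gene did not always move together. Of 3318 dimmer tested probe sets of called genes, 88.9% differed in the same direction as the brightest and 56.4% were called that way, while 87 were called the opposite way. In 90 of 4936 genes with at least 2 tested probe sets, probe sets were called in both directions. KIF1B, a kinesin of organelle transport, had probe sets at 3.03 and 1.85 and one at -1.42, IKBIP at 3.88 and 2.48 and one at -0.58, GPR180 at 0.96 and -2.62, and SMAD2 at 2.51 and -1.03.

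Dim probe sets that the limit on level set aside also differed. In the fit with no filter on level, 131 of the 32283 probe sets set aside were called at least 2-fold apart, 17 higher and 114 lower with shRNA 1. SCG5, a chaperone of secretory granules, lay at the floor of 2.24 in the shRNA 1 and scramble arrays and at 5.35 and 5.39 with shRNA 2, so its difference has no measured lower side. GASK1B (-4.86), SYT11 (-3.89) and the neuronal growth protein GAP43 (-3.79) were lower too, and they also read close to the floor with shRNA 1.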
